A study of Mus musculus with 14 samples.

Results

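The immediate early genes described here were Fos, Fosb, Jun, Junb, Jund, Egr1, Atf3, Ier2, Ier3 and Dusp1, 10 of the 52550 genes in the table, chosen by name, with earlier results of these data known. All 10 were expressed well enough to be tested, with at least 130 estimated counts in every tumor. In mouse lung adenocarcinomas sorted for YFP-positive cells, 6 of the genes (Fos, Fosb, Jun, Egr1, Atf3 and Dusp1) were either high or low, with a gap between, and both levels occurred in both genotypes. They were high in KPY-Ctrl replicates 1 and 2 and in KPY-Setd2KO replicates 1 to 4, and low in the other 8 tumors. None of the 10 genes passed the test between KPY-Setd2KO and KPY-Ctrl tumors. Junb had the smallest p of the 10 genes and was fitted 2.01-fold higher in KPY-Setd2KO tumors, with a 95% confidence interval from 0.855 to 4.71.

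Immediate early genes are transcribed within minutes of a stimulus, without new protein synthesis, because the factors that switch them on are already in the cell. ERK and p38 signalling leads to phosphorylation of partners of serum response factor and of the cAMP response element binding protein CREB. These factors act on short elements in the promoters of immediate early genes. Fos and Jun proteins pair to form the AP-1 transcription factor, which drives later gene programs of growth, invasion and stress. The same genes are known to rise when solid tissue is cut and digested with enzymes before sorting.

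Both groups carried the alleles Trp53 flox/flox and Rosa26 LSL-YFP/LSL-YFP on a mixed B6J/129S4vJae background, so tumor cells of both genotypes lacked p53. Tumors were started by 20 weeks of age with the lentivirus LentiCRISPRv2Cre, which delivers Cre and Cas9 to airway cells and leaves the choice of cell to the infection. The 6 KPY-Ctrl tumors received a guide against β-Galactosidase and the 8 KPY-Setd2KO tumors a guide against Setd2, whose protein places trimethyl marks on histone H3 lysine 36. The tumors were dissociated, and the YFP-positive cells were collected and frozen before single-end RNA-seq. The study's methods for flow cytometry describe scissors, collagenase and DNase with shaking in the cold, and antibodies against CD45, CD31 and Ter-119 to exclude other cells. It is not stated that the same antibodies were used for the RNA samples. The labels describe RNA from cell lines and other kits than the paper, a conflict that was not resolved. The study lists fewer mice than tumors, and the mouse of each tumor is not given in the sources used here. Some tumors therefore shared a mouse, and all p-values treat the tumors as independent.

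The promoters of Fos, Dusp1 and Junb are shown because Fos and Dusp1 were among the genes with a gap between high and low tumors, while Junb had the smallest p by genotype. The sequences are from RefSeq (GRCm38.p6), 5′ to 3′ on the strand of the gene, and end before the first base of any exon annotated there. RefSeq windows were found for 8 of the 10 genes, with none for Egr1 and Ier2. Capitals mark TGACG, the first part of the CREB element TGACGTCA, the full TGACGTCA, or the TATA element TATAAA.
Fos, chr12:85473640-85473889, + strand: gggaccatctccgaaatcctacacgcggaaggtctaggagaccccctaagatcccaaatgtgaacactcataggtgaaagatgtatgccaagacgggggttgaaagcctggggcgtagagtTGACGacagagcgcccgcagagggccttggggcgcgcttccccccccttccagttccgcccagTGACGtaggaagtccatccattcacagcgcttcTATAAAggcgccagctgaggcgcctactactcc
Dusp1, chr17:26508520-26508722, - strand: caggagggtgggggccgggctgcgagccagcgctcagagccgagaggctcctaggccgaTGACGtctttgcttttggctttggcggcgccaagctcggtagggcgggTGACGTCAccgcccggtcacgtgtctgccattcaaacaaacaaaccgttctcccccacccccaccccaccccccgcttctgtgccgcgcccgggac
Junb, chr8:84978749-84978998, - strand: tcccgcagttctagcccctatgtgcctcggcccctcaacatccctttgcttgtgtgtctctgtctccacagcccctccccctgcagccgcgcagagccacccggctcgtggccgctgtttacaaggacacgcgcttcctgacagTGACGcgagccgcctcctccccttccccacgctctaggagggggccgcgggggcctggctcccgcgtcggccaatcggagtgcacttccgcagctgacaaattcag

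The search covered 250 bases upstream of each RefSeq start on both strands. TGACG lies inside TGACGTCA, so a full element counts for both. In Fos, TGACG began 129 and 66 bases upstream, and TATAAA lay from 33 to 28 bases upstream. In Dusp1, the full TGACGTCA lay from 143 to 136 bases upstream and a further TGACG began 191 bases upstream. These distances are counted from the RefSeq start. The Dusp1 sequence shown, of 203 bases, ends farther upstream than that start, at an annotated exon. Junb held TGACG from 106 bases upstream, Fosb held it from 60 bases upstream, and Atf3 held it on the opposite strand from 7 bases upstream. Of 32851 promoter windows of the same length, 17.8% held TGACG, 1.55% the full TGACGTCA and 12.4% TATAAA. The CArG box, the element of serum response factor, was searched only as CCWWWWWWGG, where W is A or T. This form was in 1.47% of windows and in none of the 8 windows of these genes. A box farther upstream, of another form, or in Egr1 or Ier2 would have been missed. Other distances were not searched.

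Estimated counts summed to between 27866266 and 51828846 in the KPY-Ctrl tumors and to between 20072236 and 40604404 in the KPY-Setd2KO tumors. Levels are given as CPM, the counts scaled to the normalized library size. Setd2 itself lay between 41.9 and 63.6 CPM in KPY-Ctrl and between 17.9 and 47.4 CPM in KPY-Setd2KO, overlapping, with a mean log2 CPM lower by 0.81 (exact permutation p = 0.00466, two-sided). In the fit across all genes its log2 fold change was -0.74, which was not called (adjusted p = 0.175 from edgeR). RNA of leukocytes differed far more between tumors. The 16 leukocyte markers summed to between 580 and 9723 CPM in KPY-Ctrl and between 304 and 12839 CPM in KPY-Setd2KO, and all 16 were expressed. The 14 macrophage markers summed to between 444 and 41154 CPM and between 312 and 74694 CPM. The neutrophil marker Ly6g did not exceed 0.061 CPM in any tumor, but the 7 neutrophil markers summed to between 5.25 and 40.9 CPM in KPY-Ctrl and between 24.0 and 72.9 CPM in KPY-Setd2KO. All 6 neutrophil markers tested lay above 0 by genotype, with a median log2 fold change of 1.35. Of these, 0 were called by edgeR on genotype alone, as were 0% of all genes tested. An unadjusted p under 0.05 was found for 3 of them, against 13.7% of all genes. DESeq2 called 1 (Retnlg), against 3.7% of the genes with an adjusted p. With the leukocyte score in the model and without KPY-Ctrl replicate 6, 2 were called, against 877 of 17178 genes. The T and B cell markers summed to at most 24.3 CPM in any tumor. The part of neutrophil RNA in the levels of the immediate early genes was not tested. Endothelial, fibroblast and erythroid markers summed to at most 57.1, 88.0 and 752 CPM. Epithelial markers were present throughout, with Epcam from 72.2 to 843 CPM and the surfactant gene Sftpc from 3039 to 34541 CPM. In these bulk samples, a change in the number of cells that express a gene and a change in RNA per cell cannot be told apart.

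Fos (chromosome 12 of GRCm38, 85473890 to 85477273) encodes the AP-1 subunit that pairs with Jun proteins. It measured 44.9 CPM in the lowest, 117 CPM at the median and 1433 CPM in the highest of the 6 KPY-Ctrl tumors, and 63.0, 719 and 2248 CPM in the 8 KPY-Setd2KO tumors. The high tumors were KPY-Ctrl replicates 1 and 2 at 1433 and 1220 CPM, and KPY-Setd2KO replicates 1 to 4 at 1714, 2248, 1353 and 2196 CPM. No other tumor exceeded the 156 CPM of KPY-Ctrl replicate 6, so the genotypes overlapped over nearly the whole range. Fosb (chromosome 7, 19302696 to 19310051), a close relative of Fos, had the widest range of the 10 genes. It measured 5.73, 15.2 and 1220 CPM in KPY-Ctrl (lowest, median, highest) and 5.93, 291 and 1611 CPM in KPY-Setd2KO. The same 6 tumors were high for Fosb, all above 563 CPM, and the other 8 were at or below the 23.5 CPM of KPY-Ctrl replicate 6.

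The Jun family, the partners of Fos in AP-1, divided into genes with and without this gap. Jun (chromosome 4, 95049034 to 95052222) measured 66.0, 87.6 and 548 CPM in KPY-Ctrl and 76.8, 259 and 523 CPM in KPY-Setd2KO. Its 6 high tumors were the same as for Fos, between 407 and 548 CPM, and the other 8 lay between 66.0 and 110.3 CPM. Junb (chromosome 8, 84974484 to 84978718) measured 107, 137 and 775 CPM in KPY-Ctrl and 245, 438 and 1367 CPM in KPY-Setd2KO. Every KPY-Setd2KO tumor held at least 245 CPM of Junb, above the 107 to 161 CPM of KPY-Ctrl replicates 3 to 6, while KPY-Ctrl replicates 1 and 2 at 775 and 488 CPM lay inside the KPY-Setd2KO range. Jund (chromosome 8, 70698949 to 70700616), the Jun family member known for steady expression, measured 91.5, 159 and 414 CPM in KPY-Ctrl and 152, 253 and 383 CPM in KPY-Setd2KO. Jund had no gap between the same groups of tumors, and its genotypes overlapped.

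Egr1 (chromosome 18, 34859823 to 34864984), a zinc finger factor switched on by serum response factor, measured 61.7, 127 and 747 CPM in KPY-Ctrl and 87.4, 268 and 630 CPM in KPY-Setd2KO. The same 6 tumors were high, at 381 CPM or more, and the other 8 held at most 155 CPM. KPY-Ctrl replicate 6, which was highest among the 8 low tumors for Fos, Fosb and Dusp1, was the lowest of all 14 for Egr1. Atf3 (chromosome 1, 191170296 to 191218039), a stress-induced factor that can dimerize with Jun proteins, measured 14.01, 22.5 and 603 CPM in KPY-Ctrl and 15.6, 228 and 712 CPM in KPY-Setd2KO. It too was high in the same 6 tumors, at 426 CPM or more, against at most 29.9 CPM in the other 8.

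Dusp1 (chromosome 17, 26505590 to 26562128) encodes a phosphatase that inactivates JNK, p38 and ERK, and so restrains the pathways that induce it. It measured 56.2, 119 and 805 CPM in KPY-Ctrl and 46.9, 304 and 1119 CPM in KPY-Setd2KO, with the same 6 tumors at 545 CPM or more and the others at or below 146 CPM. Ier3 (chromosome 17, 35821684 to 35822923), a regulator of survival, departed from this pattern. It measured 31.0, 37.9 and 203 CPM in KPY-Ctrl and 46.2, 119 and 180 CPM in KPY-Setd2KO. Ier3 was high in the 6 tumors and also in KPY-Setd2KO replicates 5 and 6, at 163 and 180 CPM, where Fos held only 72.7 and 84.6 CPM. Ier2 (chromosome 8, 84661331 to 84662852), which encodes a small nuclear protein, had the narrowest range of the 10. It measured 64.2, 105 and 256 CPM in KPY-Ctrl and 59.1, 95.6 and 179 CPM in KPY-Setd2KO, with overlapping genotypes and no gap at the same place.

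**Figure D1:**
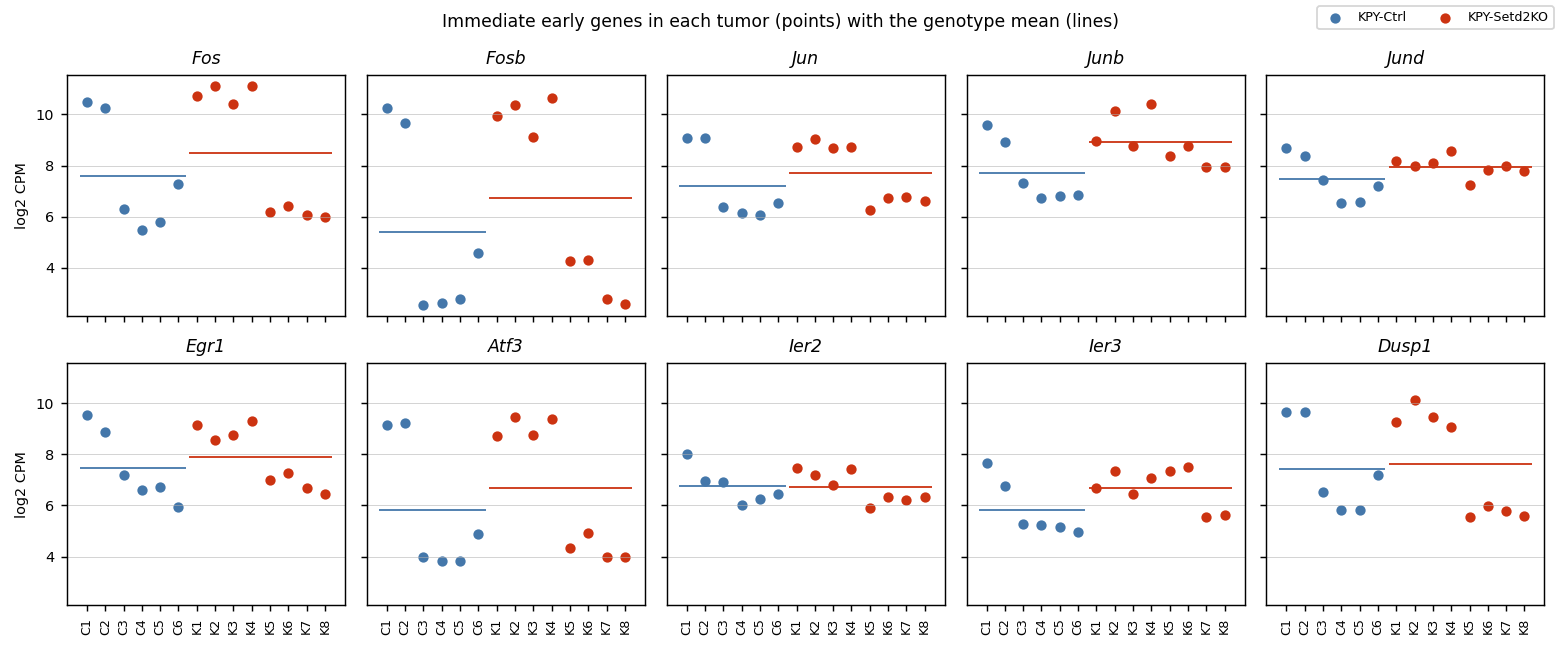
Level of each immediate early gene as log2 CPM (vertical axis) in each tumor (horizontal axis; C, KPY-Ctrl replicates 1 to 6; K, KPY-Setd2KO replicates 1 to 8), with a line at the mean of each genotype. Fos, Fosb, Jun, Egr1, Atf3 and Dusp1 are high in C1, C2 and K1 to K4, and Junb is above 245 CPM in all 8 KPY-Setd2KO tumors.

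The spread between tumors differed widely among the 10 genes. The ratio of the highest to the lowest of the 14 tumors was 281 for Fosb, 50.8 for Atf3, 50.1 for Fos and 23.8 for Dusp1. It was 12.8 for Junb, 12.1 for Egr1 and 8.30 for Jun. It was lowest for Ier3, Jund and Ier2, at 6.53, 4.52 and 4.34. Ranked by the standard deviation of log2 CPM within genotype among all 16836 genes tested, Fosb stood at percentile 99.9, Atf3 at 98.6, Fos at 97.6 and Dusp1 at 94.1, while Jund and Ier2 both stood at 48.9, near the middle.

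Levels were compared between genes after division by exon length, as CPM per kilobase, which leaves the choice of transcript open. At the median of the 14 tumors, Junb was the highest with 167 CPM per kilobase, followed by Jund at 144, Ier3 at 84.7 and Ier2 at 65.2. Fos stood at 51.1, Dusp1 at 35.8, Jun at 33.9 and Egr1 at 33.7. Atf3 and Fosb were the lowest, at 13.8 and 3.47 CPM per kilobase. The order differed in the tumors with high Fos, where Fos reached 956 CPM per kilobase and no other of the 10 genes exceeded the 594 of Junb. The range of every gene overlapped that of its neighbours in this order, so the order holds for the medians only.

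**Figure D2:**
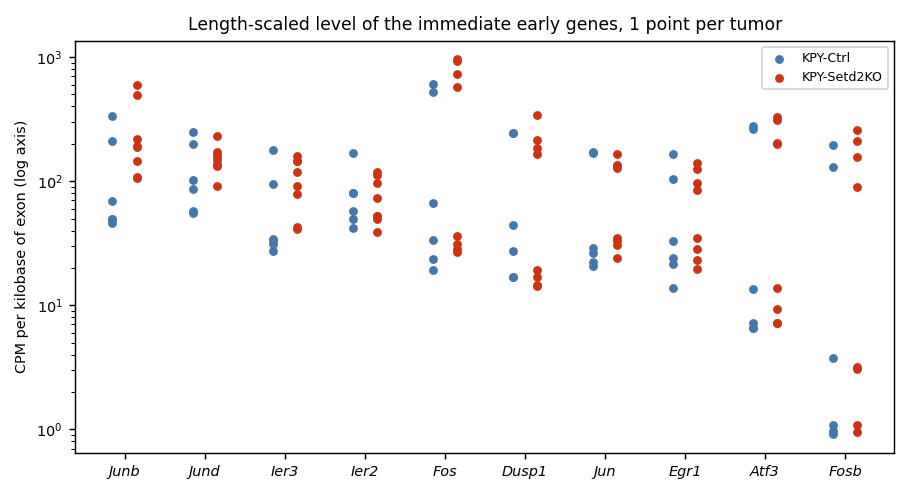
Level of each immediate early gene in CPM per kilobase of exon (log axis), 1 point per tumor, genes ordered by the median of the 14 tumors from Junb to Fosb, KPY-Ctrl in blue and KPY-Setd2KO in red. Junb has the highest median at 167 and Fosb the lowest at 3.47, and points of Fos, Dusp1, Jun, Egr1, Atf3 and Fosb fall into separate upper and lower ranges.

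The genotypes were then compared to ask whether Setd2 loss changed these genes in sorted tumor cells. With genotype alone in the model, edgeR's quasi-likelihood test called 0 of the 10 genes at an adjusted p under 0.05, where 0% of the 16836 genes tested were called. At an unadjusted p under 0.05 the count was also 0 of 10, against 13.7% of all genes. DESeq2, the tool of the study, called 0 of the 10 genes and 3.7% of the genes with an adjusted p. The limma voom fit called 0 of the 10 and 0 of the 16836 genes tested. In that fit Junb alone of the 10 had an unadjusted p under 0.05, against 2243 of the 16836 genes. The fitted log2 fold changes lay above 0 for 9 of the 10 genes, with a median of 0.39, beside a median of 0.03 over all genes tested. Most of the 10 genes varied together between tumors, so these 9 signs are not separate results. The ranges of the genotypes did not overlap for 0.57% of all genes and for none of the 10.

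On genotype alone in edgeR, Junb was at a log2 fold change of 1.00 (SE 0.575, adjusted p = 0.478 from edgeR) and Fos at 0.97 (SE 1.11, adjusted p = 0.779 from edgeR). Fos varied more within each genotype than Junb did. Fosb stood at 0.71 (SE 1.51), Ier3 at 0.62 (SE 0.48) and Atf3 at 0.49 (SE 1.19). Dusp1, Jund, Jun and Egr1 lay between 0.19 and 0.30, and Ier2 was the only gene below 0, at -0.11 (SE 0.34). All 10 adjusted p-values from edgeR lay between 0.478 and 0.938. In terms of fold, the 95% confidence interval reached from 0.38 to 10.1 for Fos and from 0.173 to 15.3 for Fosb, so neither a large rise nor a large fall of these genes was resolved, while for Ier2 it reached from 0.56 to 1.55. Which gene had the largest change depended on the fit. Without KPY-Ctrl replicate 1, Fosb was at 3.30-fold, Fos at 3.14-fold and Junb at 2.99-fold, and in limma voom Fosb stood at 1.37 and Junb at 1.20 on the log2 scale.

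For each gene alone, the difference in mean log2 CPM was tested by exact permutation, two-sided and unadjusted, with 3003 ways to assign the tumors to genotypes. Junb had the smallest p of the exact tests, 0.0643, with a mean log2 CPM higher by 1.21 in KPY-Setd2KO. Ier3 followed with a difference of 0.86 (exact permutation p = 0.114) and Jund with 0.49 (exact permutation p = 0.182). The exact p of the other 7 genes lay between 0.414 and 0.920. No gene of the 10 passed either test.

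**Figure D3:**
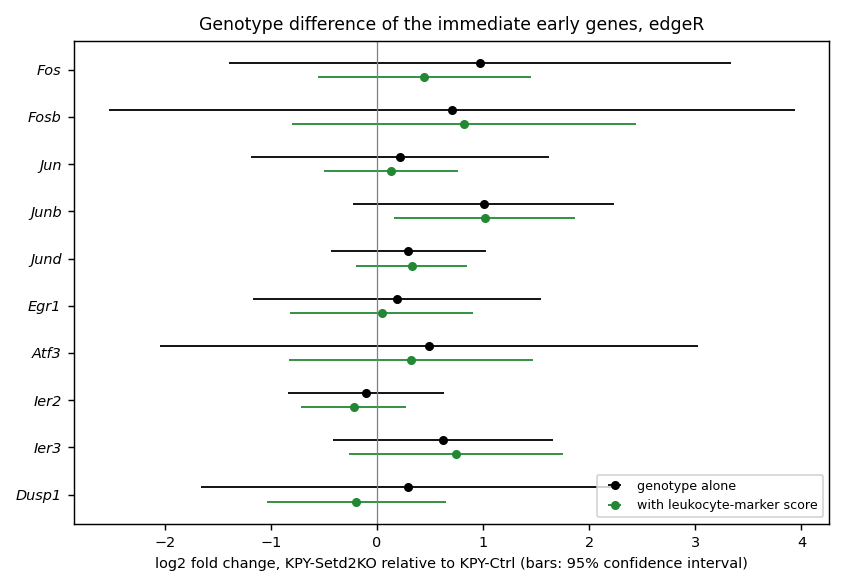
Log2 fold change of each immediate early gene in KPY-Setd2KO over KPY-Ctrl tumors from edgeR (horizontal axis; bars, 95% confidence intervals), on genotype alone (black) and with the leukocyte-marker score in the model (green). On genotype alone every interval includes 0, and with the score the interval of Junb starts at 0.16.

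The tumors with high Fos were among those rich in leukocyte RNA. The mean log2 CPM of the 16 leukocyte markers was between 7.83 and 8.55 in KPY-Ctrl replicates 1, 2 and 6 and KPY-Setd2KO replicates 1 to 4, and between 2.84 and 5.07 in the other 7 tumors, with no tumor between. The mean log2 CPM of the 10 immediate early genes fell into 2 ranges as well, from 8.53 to 9.21 in 6 tumors and from 5.50 to 6.60 in 8. Because both measures formed separate clusters, no correlation was computed. KPY-Ctrl replicate 6 was the exception, with a leukocyte score of 7.83 and a mean of the immediate early genes of 6.18. Its Fos at 156 CPM, Fosb at 23.5 CPM and Dusp1 at 146 CPM were above the other 7 low tumors yet below all 6 high ones. The epithelial marker score moved the other way, from 7.84 to 9.28 in the 7 tumors rich in leukocyte RNA and from 10.07 to 10.75 in the rest. The part of the leukocyte RNA in the levels of these genes was not tested.

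**Figure D4:**
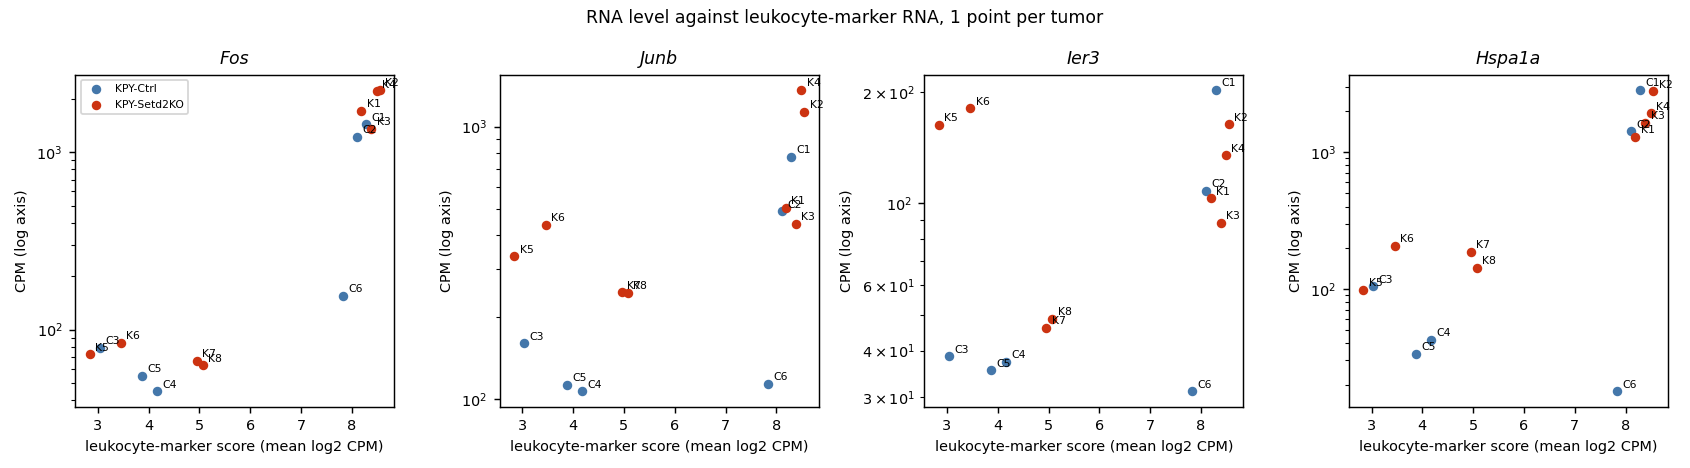
CPM (log axis) of Fos, Junb, Ier3 and the heat shock gene Hspa1a against the mean log2 CPM of 16 leukocyte markers, 1 labelled point per tumor (C, KPY-Ctrl; K, KPY-Setd2KO). C6 has a leukocyte score of 7.83 with Fos at 156 CPM, while the 6 tumors with scores from 8.10 to 8.55 have Fos at or above 1220 CPM.

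With the leukocyte score in the model, 0 of the 10 genes had an adjusted p under 0.05 from edgeR, where 5.38% of all genes were called. At an unadjusted p under 0.05, 1 of the 10 (Junb) passed, against 23.8% of all genes. Junb kept a log2 fold change of 1.02 (SE 0.40, adjusted p = 0.139 from edgeR) and Ier3 stood at 0.75 (SE 0.47). Fos was at 0.45 (SE 0.47) and Dusp1 at -0.19 (SE 0.39), and the median of the 10 genes was 0.32. Without KPY-Ctrl replicate 6, in a fit added after seeing the data, Junb was at 0.83 (adjusted p = 0.184 from edgeR) and the median of the 10 genes was 0.14. With the epithelial marker score in its place, only Junb, Jund and Ier3 remained above 0, at 0.74, 0.25 and 0.65, and the median was -0.10. Ier2 was below 0 in each of these models, and the sign of Fos, Fosb, Jun, Egr1, Atf3 and Dusp1 turned in at least 1 of them.

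The mean log2 CPM of other immediate early transcription factors was also higher in the same 6 tumors than in each of the other 8. Of 20 other immediate early transcription factors, 19 were tested, 0 were called and 19 lay above 0, with a median log2 fold change of 0.50. The median over all genes tested was 0.03. Genes of a list can vary together between tumors. Counts above 0, here and in the lists below, are therefore not separate results by genotype. Nr4a1, a nuclear receptor, is a further example of a gene high in the same 6 tumors, chosen after its values were seen. It measured 446 and 117 CPM in KPY-Ctrl replicates 1 and 2 and no more than 21.2 CPM in replicates 3 to 6. In KPY-Setd2KO, Nr4a1 measured 159, 227, 61.5 and 360 CPM in replicates 1 to 4 and at most 15.6 CPM in replicates 5 to 8. Cebpd, a stress-responsive C/EBP factor, had the smallest p (log2 fold change 0.54, adjusted p = 0.369 from edgeR). Egr3, a relative of Egr1, had the largest change, 1.32 (adjusted p = 0.523 from edgeR). That value rests on KPY-Setd2KO replicates 5 and 6 at 8.00 and 7.28 CPM, the tumors where Ier3 was high without Fos, while all others held at most 1.55 CPM of Egr3.

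The 20 early feedback and RNA decay regulators, which end the early response, held 0 calls, with 16 above 0 and a median of 0.30. Their mean log2 CPM was between 6.01 and 6.83 in the 6 tumors with high Fos and at most 5.43 in the others. Gadd45a, a stress gene that arrests growth, had the smallest p, at 0.69 (adjusted p = 0.278 from edgeR). Ier5l, a relative of Ier2, had the largest change, 1.37 (adjusted p = 0.389 from edgeR), with 23.3 and 26.0 CPM in KPY-Setd2KO replicates 5 and 6 and at most 10.3 CPM elsewhere. Among 16 early secreted and effector genes, 0 were called, 12 lay above 0 and the median was 0.53. The mean log2 CPM of this list was between 6.11 and 6.84 in the tumors with high Fos and at most 6.03 in the others. Ptgs2, the inducible cyclooxygenase, had the smallest p there (1.21, adjusted p = 0.207 from edgeR), again with its highest values in KPY-Setd2KO replicates 5 and 6 at 295 and 202 CPM. Cxcl1, a chemokine that attracts neutrophils, had the largest change, 1.62 (adjusted p = 0.457 from edgeR).

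The upstream genes of the signalling pathway did not share the distribution of the immediate early genes. The mean of the genes of sustained ERK output was lower in the tumors with high Fos than in all others. The 22 upstream kinases and serum response factor partners had a mean log2 CPM between 5.30 and 5.68 in all 14 tumors, with 0 calls, 8 above 0 and a median of -0.06. Mrtfb, a coactivator of serum response factor, had both the smallest p and the largest change, -0.53 (adjusted p = 0.134 from edgeR), and it was called lower with the leukocyte score in the model (-0.54, adjusted p = 0.0305 from edgeR) and by DESeq2. The 10 genes of sustained ERK output, which report steady pathway activity, held 0 calls, with 5 above 0 and a median of -0.10. Their mean log2 CPM was between 4.44 and 5.54 in the tumors with high Fos. KPY-Ctrl replicate 6, low in Fos but rich in leukocyte RNA, was close to these at 5.58. The other tumors with low Fos lay between 6.24 and 6.60. Spred1, an inhibitor of ERK signalling, had the largest change in that list, -0.95 (adjusted p = 0.365 from edgeR), and was called lower with the leukocyte score in the model (adjusted p = 0.0409 from edgeR), a call that was lost without KPY-Ctrl replicate 6. Phlda1 had the smallest p, at 0.62 (adjusted p = 0.289 from edgeR).

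Heat shock genes respond to protein damage and handling. Their mean log2 CPM was from 8.41 to 8.95 in the 6 tumors with high Fos and from 7.23 to 8.30 in the other 8. Not every gene of the list followed this. Among the KPY-Setd2KO tumors, Hspb1 was lowest in replicate 1 at 15.4 CPM and highest in replicate 6 at 164 CPM. Hspa1a, the inducible chaperone, measured 2862 and 1419 CPM in KPY-Ctrl replicates 1 and 2 and between 1294 and 2773 CPM in KPY-Setd2KO replicates 1 to 4. The other 8 tumors held between 17.8 and 207 CPM, with KPY-Ctrl replicate 6 the lowest of all. Hspa1a and Hspa1b are near-identical copies, so reads may be divided between them. None of the 12 heat shock genes was called, 10 lay above 0 and the median was 0.35. Hsp90ab1 had the smallest p (0.33, adjusted p = 0.320 from edgeR) and Hspb1 the largest change (1.20, adjusted p = 0.419 from edgeR). DESeq2 called Hsp90ab1 higher, and no other gene of the list.

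**Figure D5:**
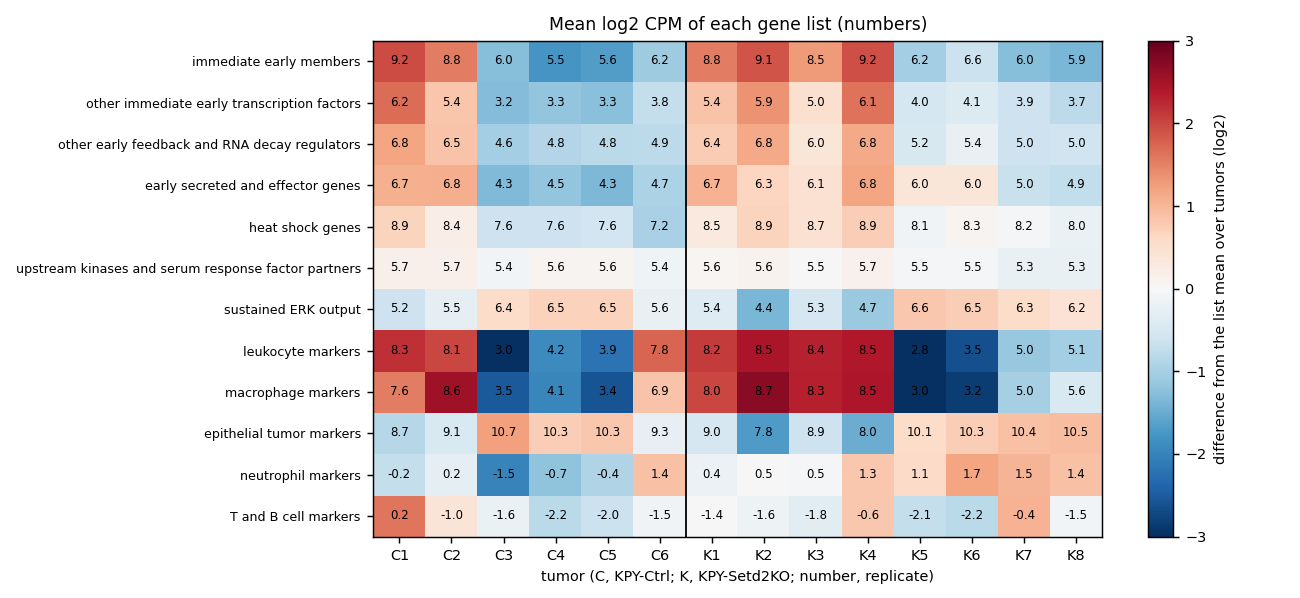
Mean log2 CPM of each gene list (rows, numbers in cells) in each tumor (columns; C, KPY-Ctrl; K, KPY-Setd2KO), coloured by the difference from the mean of that list over the 14 tumors (log2). The immediate early genes range from 5.50 in C4 to 9.21 in C1, and C6 is rich in leukocyte markers (7.83) with immediate early genes at 6.18.

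The 5 other genes whose log2 CPM, centred within genotype, was most like the mean of the 10 genes over the 14 tumors were Tex261, Csrnp1, Sowahd, Picalm and Ptp4a1, with Pearson's r from 0.984 to 0.988. These values describe likeness only, since the 14 tumors form clusters and share leukocyte RNA, and the mean was itself built from the 10 genes. Csrnp1, an immediate early transcription factor, ranged between 4.80 and 359 CPM in KPY-Ctrl and reached 352 CPM in KPY-Setd2KO. Picalm, a clathrin assembly protein, ranged from 148 to 674 CPM and from 165 to 769 CPM, and Ptp4a1, a phosphatase, from 111 to 621 CPM and from 129 to 679 CPM. Tex261 ranged only from 52.3 to 93.2 CPM and from 51.7 to 83.8 CPM, and Sowahd did not exceed 2.33 CPM. Among the 10 genes themselves, r to their mean ran from 0.994 for Atf3 and 0.992 for Fosb to 0.816 for Jund and 0.706 for Ier3.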

How the data were processed

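Estimated counts for each gene, as whole numbers and not normalized, were deposited by the authors, whose processing notes name Salmon 0.8.2 and GRCm38.p5. All 14 columns matched a sample by name. Symbols, exon lengths and coordinates came from GENCODE M21 (GRCm38). For 52403 of 52550 genes an annotation was found. A further allele that both groups share and a cell type marker are not reported here.

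The test was edgeR's robust quasi-likelihood test (edgeR 4.0.16, R 4.3.3) after the tool's expression filter and TMM scaling, with Benjamini-Hochberg adjustment over 16836 genes and calls at an adjusted p under 0.05. Alternatives were DESeq2 1.42.0, limma 3.58.1, other scalings and filters, marker-score covariates, a replicate block and leaving out single tumors. CPM and log2 CPM (prior count 2) were computed from the deposited counts. The edgeR intervals came from the quasi-likelihood fit to the counts, which models the spread between tumors with information shared across genes. The procedure was tested on simulated data. DESeq2 reports an adjusted p for 18988 genes.

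The members and lists were chosen with earlier results of these data known, and the use of marker scores as covariates as well. Genes named were the 10 members, Setd2, for each of the 6 other lists of early response, signalling and heat shock genes those of smallest p and of largest change, and the 5 genes most like the mean of the members. Cell type markers were named as checks of the samples, and Nr4a1, Hspa1a and Hspa1b after their values were seen.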

Additional observations from a re-analysis of the deposited data

How the results depend on the processing

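No immediate early gene was called in any fit. The number of all genes called was 0 on genotype alone, 702 with DESeq2, 905 with the leukocyte score in the model, 715 with the epithelial score, 877 with the leukocyte score and without KPY-Ctrl replicate 6, and from 0 to 1 when single tumors were left out, the 1 arising without KPY-Ctrl replicate 6. The median log2 fold change of the immediate early genes was 0.39 on genotype alone, -0.10 with the epithelial score and 0.14 with the leukocyte score and without KPY-Ctrl replicate 6. When single tumors were left out, it was lowest without KPY-Ctrl replicate 4, at 0.20, and highest without replicate 1 of that group, at 0.96. Direction turned with the epithelial score for Fos (-0.016), Fosb (-0.12), Jun (-0.076), Egr1 (-0.16), Atf3 (-0.30) and Dusp1 (-0.54). With the leukocyte score it turned for Dusp1 (-0.19), and without KPY-Ctrl replicate 6 as well for Jun (-0.075), Egr1 (-0.20) and Dusp1 (-0.42). When single tumors were left out it turned for Ier2 without KPY-Ctrl replicate 1 (range -0.24 to 0.26), for Egr1 without KPY-Ctrl replicate 6 (-0.021) or KPY-Setd2KO replicate 4 (range -0.041 to 0.81), and for Dusp1 without KPY-Setd2KO replicate 2 (range -0.13 to 0.80). The cause was not tested. With library size as the only scaling, the median was -0.11 over all genes and 0.28 over the immediate early genes. Junb, Jund and Ier3 stayed above 0 in every fit.

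Shared replicate numbers carried no label of a shared mouse, so the numbers were not read as pairs. Correlations of deviations from the group means ran from -0.66 to 0.66. They were positive for replicates 1, 2 and 5, where both tumors lay in the same range of leukocyte RNA. They were negative for replicates 3, 4 and 6, where the tumors did not. The correlations therefore cannot tell whether tumors were paired. With the replicate block, 0 genes were called, the median of the immediate early genes was 1.06 and Ier2 was at 0.076. Relations to the leukocyte score or to Fos, with their alternatives, were not run because the tumors formed separate clusters. Counting depth was ample for these genes, and the spread between tumors set the limits.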
